A study of Mus musculus with 4 samples.

Results

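The RNA sequence analysis of dorsal skin was examined for 10 genes of sebaceous gland lipid synthesis, *Elovl3*, *Mc5r*, *Awat1*, *Awat2*, *Dgat2l6*, *Far2*, *Fa2h*, *Scd1*, *Scd3* and *Fads2*. The members were chosen by gene symbol as genes of this gland, and all 10 were found among the 24346 symbols of the files. Earlier results of these data were known when they were chosen, so counts and medians over the list are description only. Male C57BL/6 mice, 8 weeks old at the start, were fed a NASH diet, rich in fat, cholesterol and sucrose with added bile salt, for 3 weeks, and imiquimod (IMQ) cream was then applied to the skin for 1 day. The Cont-IMQ group received this diet without 7-ketocholesterol (7KC), an oxidized derivative of cholesterol, and the 7KC-IMQ group received it with 7KC. There were 2 libraries in each group, both groups had been treated with IMQ, and no untreated skin enters the comparison. The labels do not say whether the 2 libraries of a group came from separate mice, so p-values measure only the spread between these libraries, which may be technical.

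Sebaceous glands are attached to hair follicles and release sebum, a mixture rich in wax esters, triglycerides and sterol esters, when mature sebocytes break down. Fatty acids are lengthened by elongases, given double bonds by desaturases and hydroxylated or reduced to fatty alcohols, and acyltransferases then join fatty alcohols or glycerol to acyl chains. Melanocortins, peptides cut from the precursor proopiomelanocortin, stimulate sebum secretion through the melanocortin 5 receptor.

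Values are given as deposited in FPKM, that is, sequenced fragments scaled by transcript length and by library size. The groups were compared in limma on log2(FPKM + 1) across the 15896 genes with a mean of at least 0.1 FPKM, with Benjamini-Hochberg adjustment over all of them, and a difference on this scale understates that of low genes. All 10 members passed this filter. Depth was estimated at 14980000 to 16180000 reads per library. In this whole-tissue RNA, more or fewer sebocytes and more or less RNA per sebocyte cannot be told apart.

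Of the 10 genes, 3 had 1.41 to 1.46 times the Cont-IMQ mean FPKM in the 7KC-IMQ group (*Elovl3*, *Awat1* and *Dgat2l6*), and *Mc5r* had 0.497 times. Replicates were close in *Awat1* and *Dgat2l6*, while *Elovl3* had 128 and 110 FPKM in the Cont-IMQ libraries. *Awat2* was nearly equal in all 4 libraries. The values of *Far2*, *Fa2h*, *Scd1*, *Scd3* and *Fads2* depended on a single library. No member passed an adjusted p-value of 0.05 (limma, Benjamini-Hochberg, adjusted p between 0.347 and 0.950), which 1 gene of all those tested (0.00629%) did. With an unadjusted p-value under 0.05, *Elovl3*, *Awat1* and *Dgat2l6* were higher and *Mc5r* was lower, 4 of 10 members, against 7.5% of all genes higher and 5.47% lower (13% in either direction). These 4 genes stayed under that limit in each of 12 other settings, leaving out each library included. Of all genes at that limit, 57.8% were higher in the 7KC-IMQ group, and 34.2% were when the libraries were scaled to the same FPKM sum, which left the direction of every member as it was. In mean, 6 members were higher and 4 lower, against 48.7% and 51.3% of all genes. The groups did not overlap in 7 members, 5 higher and 2 lower, against 46.8% of all genes, 23.9% higher and 22.9% lower. The median difference of the 10 members was 0.33 on the log2(FPKM + 1) scale, against -0.0056 over all genes tested. It was 0.077 without Cont-IMQ replicate 2 and 0.49 without Cont-IMQ replicate 1, so its size rested on these libraries.

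**Figure D1:**
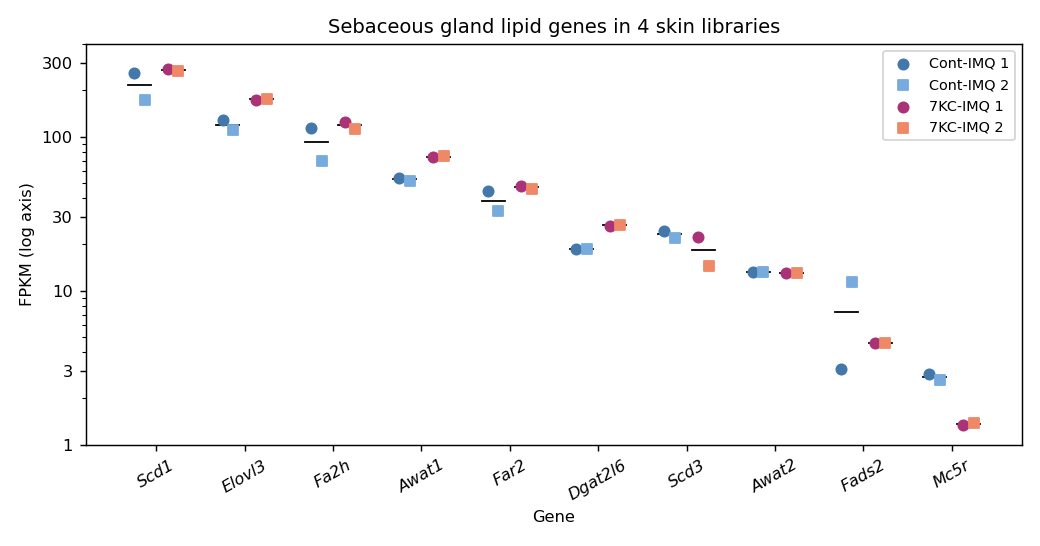
FPKM (log axis) of each sebaceous gland lipid gene in 2 libraries each of Cont-IMQ and 7KC-IMQ, with a bar at each group mean. The 7KC-IMQ libraries lie close together above the Cont-IMQ libraries in *Elovl3*, *Awat1* and *Dgat2l6* and below them in *Mc5r*, while *Fads2* is highest in Cont-IMQ replicate 2, at 11.4 FPKM.

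Levels per length of transcript spanned a wide range. *Scd1* was the highest member, at 173 to 275 FPKM, followed by *Elovl3* at 110 to 175, *Fa2h* at 70.0 to 124, *Awat1* at 51.6 to 75.1 and *Far2* at 32.8 to 47.9 FPKM. *Dgat2l6* and *Scd3* followed at 18.6 to 26.8 and 14.5 to 24.3 FPKM, then *Awat2* at 13.05 to 13.30, *Fads2* at 3.10 to 11.4 and *Mc5r* at 1.34 to 2.86 FPKM. Each member lay above the next of this order in 4 of 4 libraries, except that *Dgat2l6* lay above *Scd3* only in the 2 7KC-IMQ libraries. The ranges over the 4 libraries overlapped between *Scd1* and *Elovl3*, *Elovl3* and *Fa2h*, *Fa2h* and *Awat1*, and *Dgat2l6* and *Scd3*. *Elovl3* and *Scd1* lay at the 96.2 and 97.7 percentiles of the genes tested, and *Mc5r* at the 25.4 percentile.

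Among the acyltransferases, *Awat1* and *Awat2* encode wax alcohol acyltransferases, which join fatty alcohols to acyl chains, and *Dgat2l6* encodes another protein of the same diacylglycerol acyltransferase family. The 3 genes lie close together on chromosome X. In GENCODE M21 (GRCm38, the assembly also called mm10), *Awat2* (ENSMUSG00000031220.14) lies at chrX:100402221-100442717 on the minus strand. *Dgat2l6* (ENSMUSG00000067597.5) lies at chrX:100524838-100546144 and *Awat1* (ENSMUSG00000015665.8) at chrX:100572251-100578205, both on the plus strand. RefSeq (GRCm38.p6) gives 1 start site for *Awat1*, 1 for *Dgat2l6* and 2 for *Awat2*. The 250 bases before each are printed because *Awat1* and *Dgat2l6* differed between the groups to nearly the same extent while *Awat2*, in the same stretch of chromosome, had nearly equal values. Capitals mark the motif CCAAT on either strand.
Awat1, chrX:100571997-100572246, strand +: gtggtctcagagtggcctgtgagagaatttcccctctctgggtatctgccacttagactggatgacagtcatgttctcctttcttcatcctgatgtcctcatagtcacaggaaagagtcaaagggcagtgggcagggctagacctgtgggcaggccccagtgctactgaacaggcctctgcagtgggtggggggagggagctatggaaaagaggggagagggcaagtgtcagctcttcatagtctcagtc
Dgat2l6, chrX:100524588-100524837, strand +: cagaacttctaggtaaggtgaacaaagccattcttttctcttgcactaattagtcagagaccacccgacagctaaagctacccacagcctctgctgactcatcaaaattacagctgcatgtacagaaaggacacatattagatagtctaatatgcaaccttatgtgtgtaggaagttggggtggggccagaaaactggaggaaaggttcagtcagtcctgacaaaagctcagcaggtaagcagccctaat
Awat2 first start, chrX:100442718-100442967, strand -: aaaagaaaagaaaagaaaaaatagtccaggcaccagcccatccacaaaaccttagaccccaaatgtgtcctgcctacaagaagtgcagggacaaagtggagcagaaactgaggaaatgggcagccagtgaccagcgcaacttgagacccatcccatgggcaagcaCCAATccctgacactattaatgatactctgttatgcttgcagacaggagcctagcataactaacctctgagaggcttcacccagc
Awat2 second start, chrX:100412588-100412837, strand -: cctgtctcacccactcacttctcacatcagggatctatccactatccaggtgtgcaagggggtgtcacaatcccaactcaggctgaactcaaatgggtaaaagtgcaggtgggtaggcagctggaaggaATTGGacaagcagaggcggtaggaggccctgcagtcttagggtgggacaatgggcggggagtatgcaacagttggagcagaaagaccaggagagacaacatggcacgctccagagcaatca
The letters CCAAT were found before both *Awat2* starts and in none of the other 5 of the 7 member promoters available (6 members, including *Far2*, *Scd3* and *Fads2*), and 33.8% of 32851 mouse promoter windows of the same length hold them. The SREBP motif TCACNCCAC (1.05% of all windows), the nuclear receptor motif AGGTCA (14%), the PPAR motif made of AGGTCA repeated in the same direction after 1 base of any kind (0.0335%), the E-box CACGTG (6.02%) and TATAAA (12.4%) were in none of the 7, on either strand. Every match to the PPAR motif is also counted under AGGTCA. A window without these letters says nothing of what binds there. *Elovl3*, *Mc5r*, *Fa2h* and *Scd1* are not in the promoter table used.

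Values below are in the order of replicates 1 and 2 of the Cont-IMQ group, then 1 and 2 of the 7KC-IMQ group. *Awat1* was measured at 54.1 and 51.6 FPKM without 7KC and at 73.7 and 75.1 FPKM with 7KC. Both 7KC-IMQ libraries were higher than both Cont-IMQ libraries, and the gap was larger than the spread within either group. The group means were 52.9 ± 1.76 and 74.4 ± 1.02 FPKM (SD, n = 2), and the difference was 0.48 on the log2(FPKM + 1) scale (standard error 0.070, limma, adjusted p = 0.347). *Dgat2l6* stood at 18.6 and 18.8 FPKM without 7KC and at 26.3 and 26.8 FPKM with 7KC. Again the groups did not overlap, and replicates within a group differed little. Its difference was 0.48 (standard error 0.072, limma, adjusted p = 0.352), almost the value of *Awat1*.

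*Awat2* stood at 13.17 and 13.30 FPKM without 7KC and at 13.05 and 13.10 FPKM with 7KC, which corresponds to an estimated 350 to 377 reads per library. All 4 values lay within a narrow range, and the Cont-IMQ libraries were the higher ones only by the last digits. Its difference was -0.017 on the log2(FPKM + 1) scale, with a 95% interval from -0.22 to 0.19 (limma, adjusted p = 0.950), and -0.093 with equal FPKM sums. Of the other genes of this stretch of 176 kb, *Igbp1*, which lies between *Awat2* and *Dgat2l6* and was chosen after its values were seen, had 55.0 and 53.1 FPKM against 51.9 and 55.4 FPKM. *Otud6a* was listed at 0 in all 4 libraries.

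Ratios within a library do not change when all values of a library are multiplied by a constant. *Awat1* had 4.11 and 3.88 times the FPKM of *Awat2* in the Cont-IMQ libraries and 5.65 and 5.74 times in the 7KC-IMQ libraries. *Dgat2l6* had 1.41 times the FPKM of *Awat2* in both Cont-IMQ libraries, and 2.02 and 2.05 times in the 7KC-IMQ libraries. In contrast, the ratio of *Dgat2l6* to *Awat1* was 0.344 and 0.364 in the Cont-IMQ group and 0.357 and 0.356 in the 7KC-IMQ group. The ratios to *Awat2* were thus higher in both 7KC-IMQ libraries, and the other one overlapped. The ratio of *Elovl3* to *Awat2* was likewise 9.74 and 8.30 against 13.4 and 13.4. By exact permutation (two-sided, 2 against 2), each ratio to *Awat2* gave p = 0.333, the smallest p this design allows, and the ratio of *Dgat2l6* to *Awat1* gave p = 1.0. As *Awat2* was nearly equal in all 4 libraries, the ratios to it restate the differences of the other genes and add no separate support.

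**Figure D2:**
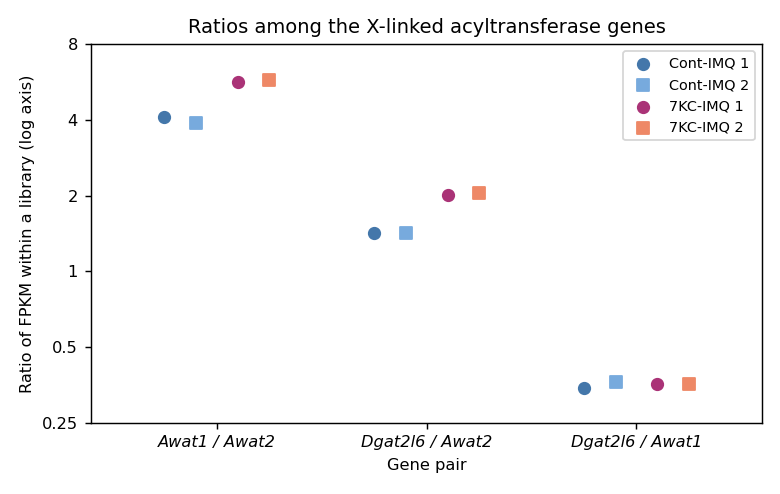
Ratio of FPKM within each library (log axis) for 3 pairs of the X-linked acyltransferase genes, with 1 point per library. The ratios to *Awat2* are higher in both 7KC-IMQ libraries (5.65 and 5.74 against 4.11 and 3.88 for *Awat1*), and that of *Dgat2l6* to *Awat1* lies between 0.344 and 0.364 in all 4.

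*Elovl3* (ENSMUSG00000038754.5, chr19:46131897-46135694) encodes an elongase of very long chain fatty acids. Its level was 128 and 110 FPKM without 7KC, and 174 and 175 FPKM with 7KC. The 7KC-IMQ libraries were nearly equal and above both Cont-IMQ libraries, of which replicate 2 was the lower. The means were 119 ± 12.6 and 175 ± 0.606 FPKM (SD, n = 2), with a difference of 0.55 on the log2(FPKM + 1) scale (standard error 0.098, 95% interval 0.29 to 0.81, limma, adjusted p = 0.352). Without Cont-IMQ replicate 2 it was 0.44, and without replicate 1 it was 0.66. Brown adipocytes also express *Elovl3*, and their defining marker *Ucp1* was at 0.05 FPKM or below in every library. The 4 brown adipocyte markers summed to 232 and 229 FPKM against 173 and 228 FPKM, nearly all of it *Cox8b* and *Cox7a1*, and the part of this cell type in *Elovl3* was not tested.

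*Mc5r* (ENSMUSG00000007480.4, chr18:68337596-68342446) encodes the melanocortin 5 receptor. Its level was 2.86 and 2.62 FPKM without 7KC, and 1.34 and 1.38 FPKM with 7KC. Both 7KC-IMQ libraries were lower, in the opposite direction to *Elovl3*, *Awat1* and *Dgat2l6*. From the length of its annotated transcript, this is about 161 and 146 reads compared with 80 and 77. The difference was -0.66 on the log2(FPKM + 1) scale (standard error 0.11, 95% interval -0.95 to -0.38, limma, adjusted p = 0.352), and -0.96 with a pseudocount of 0.1. Relative to *Awat1* in the same library, *Mc5r* stood at 0.0529 and 0.0507 without 7KC and at 0.0182 and 0.0184 with 7KC (exact permutation, two-sided, p = 0.333). With *Mc5r* lower and *Awat1* higher without overlap, this ratio had to separate the groups, so it adds no support.

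**Figure D3:**
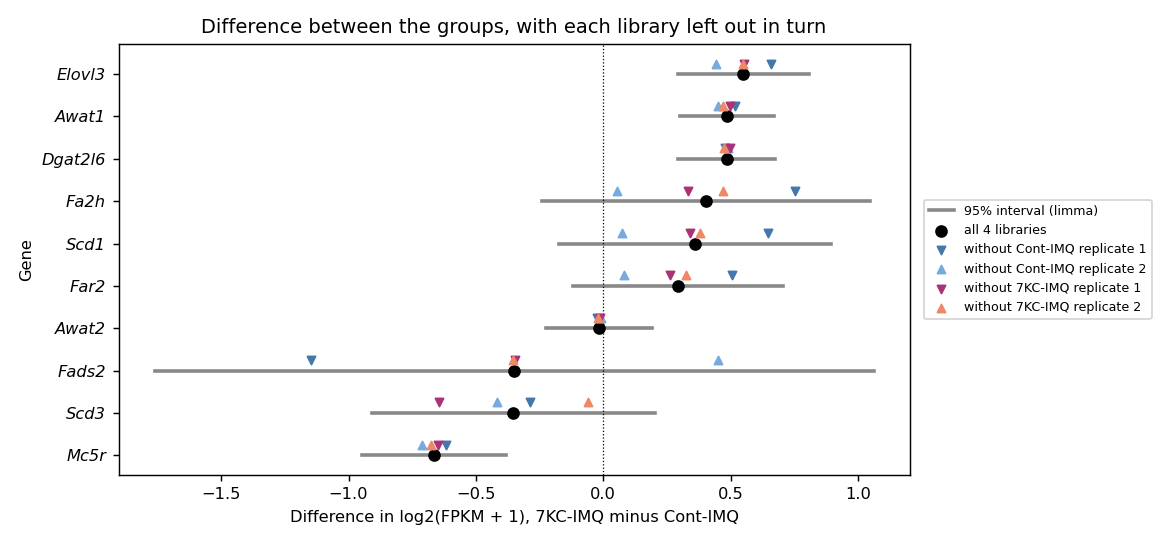
Difference between the groups in log2(FPKM + 1) for each sebaceous gland lipid gene, with the 95% interval of limma and the value with each library left out. *Elovl3*, *Awat1*, *Dgat2l6* and *Mc5r* keep their side of 0, whereas *Fads2* runs from -1.15 without Cont-IMQ replicate 1 to 0.45 without Cont-IMQ replicate 2.

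The remaining members were those in which a single library set the difference. *Far2* (ENSMUSG00000030303.15, chr6:148047259-148182758) encodes a reductase that makes fatty alcohols, the substrate of the wax acyltransferases. Its level was 44.3 and 32.8 FPKM against 47.9 and 45.9 FPKM. *Fa2h* (ENSMUSG00000033579.16, chr8:111345135-111393824), which encodes the fatty acid hydroxylase of sphingolipids and skin lipids, had 114 and 70.0 FPKM against 124 and 113 FPKM. *Scd1* (ENSMUSG00000037071.3, chr19:44394455-44407879) encodes the main stearoyl-CoA desaturase of the gland and had 257 and 173 FPKM against 275 and 267 FPKM. In all 3 genes, Cont-IMQ replicate 2 was the lowest library, and Cont-IMQ replicate 1 stood close to the 7KC-IMQ libraries. The differences were 0.29, 0.40 and 0.36 for *Far2*, *Fa2h* and *Scd1* (limma, adjusted p = 0.499, 0.540 and 0.516). Without Cont-IMQ replicate 2 they were 0.081, 0.054 and 0.074, and without Cont-IMQ replicate 1 they were 0.50, 0.75 and 0.65.

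*Scd3* (ENSMUSG00000025202.8, chr19:44203269-44244016) encodes another stearoyl-CoA desaturase expressed in skin. Its level was 24.3 and 22.1 FPKM against 22.2 and 14.5 FPKM. The groups overlapped, and 7KC-IMQ replicate 2 alone was low. The difference of -0.35 (standard error 0.21, limma, adjusted p = 0.537) became -0.059 without that library and -0.65 without 7KC-IMQ replicate 1. *Scd1* had 10.6 and 7.81 times the FPKM of *Scd3* without 7KC, and 12.4 and 18.5 times with 7KC (exact permutation, two-sided, p = 0.333). As the difference of *Scd1* rested on Cont-IMQ replicate 2 and that of *Scd3* on 7KC-IMQ replicate 2, this ratio adds no support. *Scd1* and *Scd3* share sequence, although only 3.15% and 3.2% of their 75-base windows also occur in another annotated gene, and no such window was found in the other 8 members.

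*Fads2* (ENSMUSG00000024665.8, chr19:10062765-10101746) encodes a desaturase of polyunsaturated fatty acid synthesis. Its level was 3.10 and 11.4 FPKM against 4.58 and 4.61 FPKM, or an estimated 139, 507, 218 and 204 reads. The Cont-IMQ libraries were therefore the lowest and the highest of the 4, with both 7KC-IMQ libraries between them. Its difference was -0.35 (standard error 0.53, limma, adjusted p = 0.812), and its sign depended on which Cont-IMQ library was kept.

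The 2 Cont-IMQ libraries also stood apart in hair follicle markers. All 23 of these keratin, trichohyalin and follicle regulator genes were highest in Cont-IMQ replicate 2, against 4374 of all 15896 genes tested. Their summed FPKM was 135 and 1725 in the Cont-IMQ group against 504 and 446 in the 7KC-IMQ group. Relative to the mean of the 4 libraries, the list stood at -1.27 and 1.57 in Cont-IMQ replicates 1 and 2 and, for 7KC-IMQ, at -0.11 and -0.20 on the log2(FPKM + 1) scale. *Fads2* stood at -0.62, 0.97, -0.18 and -0.17 in the same order, so it was highest and lowest in the same libraries as the follicle list. *Scd1* stood at 0.11, -0.47, 0.20 and 0.16, with its lowest value in the library where the follicle list was highest, and *Fa2h* and *Far2* did likewise. The part of follicle content in these values was not tested. *Awat1* (-0.21 and -0.28 against 0.23 and 0.26) and *Dgat2l6* (-0.25 and -0.23 against 0.23 and 0.25) differed little between the Cont-IMQ libraries. *Elovl3* stood at -0.17 and -0.38 against 0.27 and 0.28, with its lowest value also in Cont-IMQ replicate 2.

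**Figure D4:**
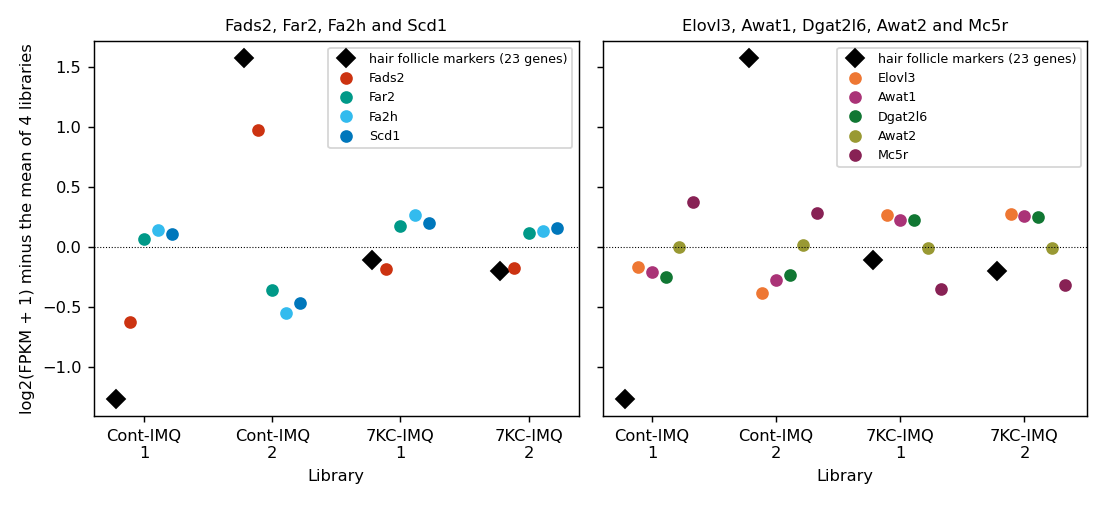
Value of each gene and of the mean of 23 hair follicle markers in each library, as log2(FPKM + 1) minus the mean of the 4 libraries. Follicle markers stand at -1.27 and 1.57 in the 2 Cont-IMQ libraries, *Fads2* at -0.62 and 0.97, while *Scd1*, *Fa2h* and *Far2* are lowest in Cont-IMQ replicate 2 and *Awat1* and *Dgat2l6* separate the groups.

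Markers of other cell types in the samples were counted in the same way. The summed FPKM of 10 white adipocyte markers was 2347 and 3110 in the Cont-IMQ group and 3020 and 2451 in the 7KC-IMQ group, most of it *Cfd*, *Fabp4* and *Car3*. Of these 10 markers, 8 were higher and 2 lower in mean, against 48.7% and 51.3% of all genes, with a median difference of 0.20. Without overlap, 3 were higher and 1 lower, against 23.9% and 22.9% of all genes. Most of these markers thus had the same direction as *Elovl3*, *Awat1* and *Dgat2l6*. At an unadjusted p-value under 0.05 (limma), 2 were higher and none were lower, against 7.5% and 5.47% of all genes. They were *Lep*, with 1.64 and 1.16 FPKM against 9.75 and 3.71 FPKM, and *Plin1*, with 17.4 and 19.6 FPKM against 26.1 and 22.7 FPKM. Both were named for this count after their values were seen. The part of fat content in the values of the members was not tested. The 10 skeletal muscle markers summed to 8810 and 8437 against 7192 and 8504 FPKM. Of them, 2 were higher and 2 lower without overlap, near the 23.9% and 22.9% of all genes. Keratin and envelope markers of the interfollicular epidermis (10 genes) summed to 31300 and 22260 against 24750 and 27210 FPKM. Without overlap, 4 of them were lower and 1 higher, against 22.9% and 23.9% of all genes. At an unadjusted p-value under 0.05 (limma), 4 were lower and none were higher, against 5.47% and 7.5% of all genes. The marker that was higher without overlap was *Krt14*, and the summed FPKM of the list overlapped between the groups. *Mc5r* was lower, and the part of epidermal content in its values was not tested. *Krt79*, a keratin of the sebaceous duct and upper follicle, was at 683 to 986 FPKM, so transcripts of this region were detected in all 4 libraries. The 6 hepatocyte markers summed to 128 and 203 against 111 and 109 FPKM, nearly all of it *Cyp2e1* (122 and 197 against 107 and 105 FPKM), with *Alb* at 0.54 to 1.93 FPKM.

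Of the other enzymes of fatty acid synthesis, elongation and desaturation, 18 of 19 were tested. In mean, 16 were higher in the 7KC-IMQ group and 2 lower, against 48.7% and 51.3% of all genes. Without overlap, 4 were higher and none lower, against 23.9% and 22.9%, and the median difference was 0.12. Cont-IMQ replicate 2 was the lowest library in 12 of the 18, against 4266 of all 15896 genes tested. The median was 0.018 without Cont-IMQ replicate 2 and 0.21 without Cont-IMQ replicate 1. *Fads6*, a desaturase family gene, had 2.40 and 2.36 FPKM against 3.18 and 3.13 FPKM, with a difference of 0.30 (limma, adjusted p = 0.366). *Elovl4*, the elongase that makes the ultra-long chains of barrier lipids, had 521 and 457 FPKM against 561 and 586 FPKM, with a difference of 0.23, which was 0.14 without Cont-IMQ replicate 2 and 0.15 with equal FPKM sums or quantile normalization. The ratio of *Elovl3* to *Elovl4* in the same library was 0.246 and 0.242 without 7KC and 0.311 and 0.299 with it (exact permutation, two-sided, p = 0.333). As *Elovl3* differed more than *Elovl4*, this ratio restates their differences and adds no support. At an unadjusted p-value under 0.05, 2 genes were higher, *Fads6* and the fatty acid synthase gene *Fasn* (named for this count, after its values were seen), and none were lower, against 7.5% and 5.47% of all genes.

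Genes of ester assembly and lipid droplets (21 genes, 20 tested) had a median difference of 0.13, with 9 higher and 4 lower without overlap, against 23.9% and 22.9% of all genes. The median was 0.054, 0.078 and 0.067 without Cont-IMQ replicate 2, Cont-IMQ replicate 1 and 7KC-IMQ replicate 2. *Fabp5*, a fatty acid binding protein of keratinocytes and sebocytes, had 2127 and 1866 FPKM against 2703 and 3909 FPKM (difference 0.71, limma, adjusted p = 0.364). Its value was 0.44 without 7KC-IMQ replicate 2. *Agpat2*, an acyltransferase of triglyceride synthesis, had 19.2 and 20.3 FPKM against 25.1 and 31.5 FPKM (difference 0.49). On the lower side, *Gpam*, the first acyltransferase of glycerolipid synthesis, had 20.53 and 18.33 FPKM against 15.81 and 18.26 FPKM, so the groups were apart only narrowly, and *Pnpla2*, the adipose triglyceride lipase, had 99.4 and 110 FPKM against 97.5 and 91.2 FPKM. At an unadjusted p-value under 0.05, 5 genes were higher and none were lower, against 7.5% and 5.47% of all genes. They were *Fabp5*, *Agpat2* and, named for this count after their values were seen, *Dgat1*, *Soat1* and *Cidea*. *Dgat1*, *Soat1* and *Cidea* serve triglyceride synthesis, sterol ester synthesis and lipid droplets, in this order. *Soat1* had 22.9 and 24.3 FPKM against 29.0 and 29.1 FPKM, *Dgat1* 34.2 and 29.4 against 38.0 and 38.4 FPKM, and *Cidea* 50.0 and 45.2 against 57.1 and 63.1 FPKM. None of this list passed the adjusted threshold (limma, adjusted p of at least 0.356).

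Of 15 genes of the sebaceous lineage and its regulators, 5 were higher and 3 lower without overlap, near the 23.9% and 22.9% of all genes, and the median difference was 0.07. *Plet1*, a surface marker of the upper hair follicle near the gland, had 68.1 and 78.9 FPKM against 119 and 127 FPKM, with a difference of 0.73 (standard error 0.10, limma, adjusted p = 0.331). *Krt79* had 827 and 683 FPKM against 986 and 906 FPKM (difference 0.33, but 0.19 without Cont-IMQ replicate 2 and 0.21 with quantile normalization). *Lrig1*, which marks stem cells of the junctional zone, had 24.6 and 26.9 against 21.7 and 22.6 FPKM. The median of this list was -0.028 without Cont-IMQ replicate 2, so its sign rested on that library, and 0.15 and 0.13 without Cont-IMQ replicate 1 and 7KC-IMQ replicate 2. At an unadjusted p-value under 0.05, 2 genes were higher and none were lower, against 7.5% and 5.47% of all genes. They were *Plet1* and the sterol sensor gene *Scap* (named for this count, after its values were seen).

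In the melanocortin pathway, 9 of 13 genes found were tested, and *Mc4r* was listed at 0 in all 4 libraries. *Mgrn1* and *Atrn*, which act in melanocortin receptor signaling of melanocytes, had differences of -0.084 and -0.073. That of *Mgrn1* was -0.041 without Cont-IMQ replicate 2, -0.13 without Cont-IMQ replicate 1 and -0.16 with equal FPKM sums, and that of *Atrn* was -0.14 with equal sums and -0.043 with quantile normalization. The median of the list was -0.073, but 0.075 without Cont-IMQ replicate 2 and 0.052 with a pseudocount of 0.1. The other melanocortin receptor genes were low, with *Mc1r* between 0.06 and 0.74 FPKM, *Mc2r* between 0.42 and 0.75 FPKM and *Mc3r* at or below 0.16 FPKM, so *Mc5r* was the receptor gene with the highest level in each library. The precursor gene *Pomc* was at 0.08 FPKM in both Cont-IMQ libraries and at 0.30 and 0.17 FPKM in the 7KC-IMQ libraries. At an unadjusted p-value under 0.05, 1 gene of the list was higher and none were lower, against 7.5% and 5.47% of all genes. This was *Agrp*, which encodes an antagonist of central melanocortin receptors, with 0.57 and 0.23 FPKM against 1.60 and 0.87 FPKM (chosen after its values were seen, limma, adjusted p = 0.365). Its mean of 0.82 FPKM was under the 1 FPKM asked of named pathway genes, and that of *Pomc* was 0.16 FPKM. Reads were estimated for neither, and values this low rest on few reads.

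**Figure D5:**
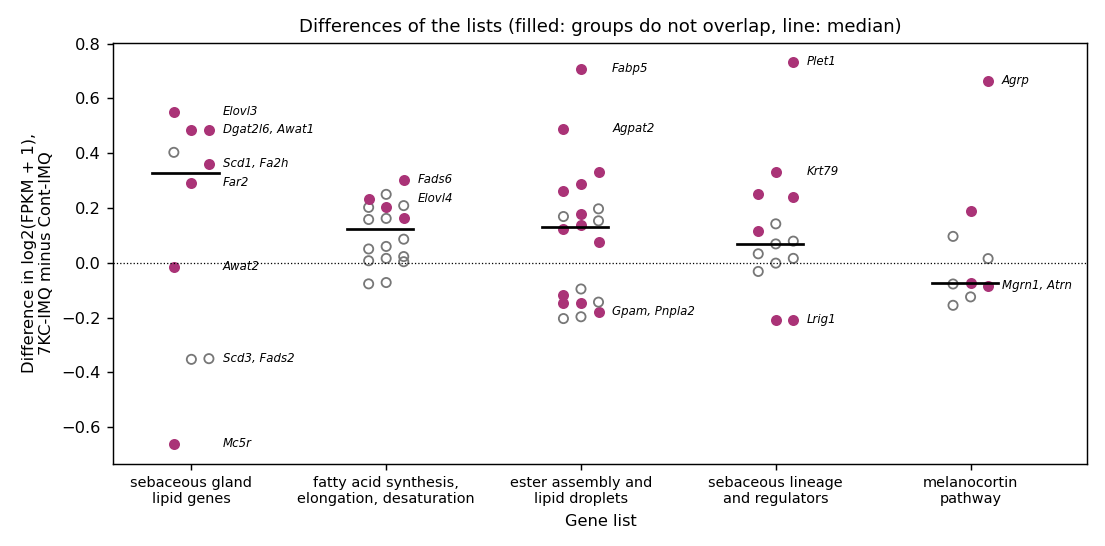
Difference between the groups in log2(FPKM + 1) for the tested genes of 5 lists (1 gene of the sebaceous lineage list is not drawn), filled where the groups do not overlap, with a line at the median. The medians were 0.33 for the sebaceous gland lipid genes, 0.12, 0.13 and 0.07 for the next 3 lists and -0.073 for the melanocortin pathway, whose sign changed with a pseudocount of 0.1 and without Cont-IMQ replicate 2.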

How the data were processed

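RNA of dorsal skin was measured in 4 libraries, 2 per group, grouped by the sample labels. Single-end reads of 75 bases were mapped to mm10 by the authors, using TopHat, Bowtie2 and SAMtools. They deposited 1 FPKM value per gene symbol and library. The submitters' processing notes list TopHat2 2.1.1, Bowtie2 2.2.8, SAMtools 0.1.18 and Cuffdiff 2.2.1. The study's methods name other versions of some of them, and Cufflinks for the FPKM values, so which program gave the deposited values is not settled. Median ratio factors of the 4 libraries were all 1, so the deposited FPKM values were already on a common scale. Between 7185 and 7388 symbols per library were listed at 0, which can be a failed estimate.

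log2(FPKM + 1) was compared between the groups by lmFit and eBayes of limma 3.58.1 (R 4.3.3) with a variance trend, in genes with a mean of at least 0.1 FPKM. The fit was also run on simulated data with planted changes larger than the differences of the members. Recovery of changes as small as those of the members was not tested. Depth was estimated from genes with a single transcript as the number of reads that brings low values closest to whole reads, taking 200 bases off the transcript length (69.6% to 74.0% within 0.1 read, against 20% by chance). No count model was used, because the files hold no counts. Shared windows and coordinates came from GENCODE M21. 1 listed gene, *Asip*, was not analysed here. The members and lists were chosen with earlier results of these data known. From each pathway list, the text names the 2 largest positive and the 2 largest negative differences among genes with a mean of at least 1 FPKM whose groups do not overlap. 1 gene that this rule chose is not reported here. Alternatives were a pseudocount of 0.1, a minimum mean of 1 FPKM or no filter, median ratio, equal-sum and quantile scaling, a fit without the variance trend, a replicate block and leaving out each library. The median over the members under these settings was added after seeing the data.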

Additional observations from a re-analysis of the deposited data

How the results depend on the processing

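No member passed an adjusted p-value of 0.05 in limma under any of the 12 alternatives. Of 264 values under them of 22 genes (the 10 members and 12 pathway genes chosen by the rule), 1 changed sign. This was *Fads2*, at 0.45 without Cont-IMQ replicate 2, and it ranged from -1.15 to 0.45 with a library left out. A different filter, no variance trend or a replicate block leaves each difference unchanged by construction, so those values could not change sign. Median ratio scaling, with factors of 1, hardly moved them. Without Cont-IMQ replicate 2, *Fa2h* and *Scd1* kept their sign but fell to 0.054 and 0.074. With each library left out, the number of members at an unadjusted p-value under 0.05 was 4 to 8 (8 without Cont-IMQ replicate 1), and the number of genes past the adjusted threshold was 1 to 11, and 2 with a pseudocount of 0.1. Genes at an unadjusted p-value under 0.05 numbered 339 to 1196 higher and 280 to 1149 lower without a library, with the lowest counts, 339 and 280, without 7KC-IMQ replicate 2, and 682 and 461 without 7KC-IMQ replicate 1. With equal FPKM sums, 638 genes were higher and 1230 lower (34.2% higher, against 57.8% of 1192 and 869 as deposited), the median of all genes was -0.067 against -0.0056, and the mean difference of the members was 0.043 against 0.12. The median of the members, 0.33, was 0.25 with equal sums, 0.26 with quantile normalization and 0.077 to 0.49 without a library (alternatives for this median were chosen after seeing the data). The cause was not tested.

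Median differences of the lists moved as follows. For fatty acid synthesis, elongation and desaturation, the median was 0.056 with quantile normalization, 0.040 with equal sums and 0.018 to 0.21 without a library. For ester assembly and lipid droplets, it was 0.075, 0.060 and 0.054 to 0.11 in the same order. For the sebaceous lineage list, it was 0.0014 with equal sums and -0.028 to 0.15 without a library. For the melanocortin list, it was 0.052 with a pseudocount of 0.1 and -0.072 to 0.075 without a library. Where a group was left with 1 library, that library was assumed to vary like the others. Deviations of libraries with the same replicate number had a correlation of 0.065 across genes. With the replicate block, 978 genes were higher and 776 lower at an unadjusted p-value under 0.05, 1 gene passed the adjusted threshold, and no call on a member changed. With 2 libraries a group and estimated reads only, small differences of *Mc5r* and other low genes are limited by depth.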
